A study of Mus musculus with 12 samples.

Results

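The collagen mRNAs Col1a2, Col4a6 and Col16a1 and the mRNA of the collagen-modifying protein Crtap carried 6 cytosines that passed as methylated in RNA bisulfite sequencing (RNA BS-seq) of mouse neural stem cells (NSCs). These are 6 of 6462 cytosines that passed anywhere in the series, on 4 of the 16173 genes with a listed cytosine. A cytosine was taken where its coverage (reads over the position) was at least 20, at least 6 of those reads kept a C, and the m5C level (reads with C over reads with C or T) was at least 10% in both replicates of at least 1 condition. The genes and sites were therefore chosen by the levels themselves, so the level in a condition that passed is a description. A test is given only where the site had passed in a condition outside the comparison. For a test of polysome against total mRNA that condition could be another polysome condition, so the choice itself favours higher polysome levels.

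NSCs came from the subventricular zone of the lateral ventricles of 6 to 8 week old, wild-type male C57BL/6 mice and were grown as a monolayer with EGF and bFGF. Folic acid was 1.5 μM (low folate, LF), 10 μM (medium folate, MF) or 80 μM (high folate, HF) for 4 days, and no group was grown without folic acid. Poly(A) RNA was taken from whole cells (total mRNA: LF, MF, HF) or from pooled polysome fractions of a sucrose gradient after cycloheximide (polysome mRNA: pLF, pMF, pHF), as biological duplicates, which makes 12 libraries over 6 conditions. The sources used here do not tie a replicate to an animal or a culture, so p-values that include a spread between replicates (limma, beta-binomial) cover these libraries only.

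Fibrillar collagens, basement membrane collagens and collagens that sit on fibril surfaces share the triple helix, in which every glycine repeat is spelled by codons that begin with GG. The helix folds in the endoplasmic reticulum only after prolines and lysines of the chains have been hydroxylated, and the chains are then secreted, trimmed and cross-linked. m5C is a methyl group that RNA methyltransferases place on the cytosine ring, and bisulfite turns unmethylated C into U, read as T, while m5C stays C. Col1a2 encodes the alpha-2 chain of type I collagen, the main fibrillar collagen. Col4a6 encodes a chain of type IV collagen, the network collagen of basement membranes. Col16a1 encodes a FACIT collagen, a class that associates with fibrils and has interrupted triple helices. Crtap is not a collagen, but forms the prolyl hydroxylase complex with P3h1 and Ppib.

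The 6 sites all lay in coding sequence, and all were isolated, with no other passing cytosine within 25 bases on the genome. A cytosine 8 bases upstream of Col16a1 chr4:130073114 did meet the thresholds in pLF replicate 2 (12.6%), but not in both replicates. The surroundings of the 6 sites in the spliced mRNA are shown because 5 of the 6 have the same bases after the methylated cytosine. Each stretch runs 5′ to 3′ on the mRNA strand, was read from the GRCm38 genome with the GENCODE exons, and has the methylated C and the next 2 bases in capitals.
Col1a2 exon 13 (chr6), plus strand: ccaggtcaagCAGgagcccga
Col4a6 chrX:141200186, minus strand: tcaaaaatgtCAGgggacaaa
Col16a1 chr4:130073114, plus strand: gccgggcccgCAGggtccccc
Col16a1 chr4:130086244, plus strand: ccaggcttccCAGgcccaccg
Crtap chr9:114390233, minus strand: gcgctgcaagCAGggcctgcc
Col1a2 chr6:4540536, plus strand: atgaatggggCAAgacaatca

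The exception to CAG is the second Col1a2 site, at chr6:4540536, where CAA follows. The letters CAG, searched on the mRNA strand from the methylated C onward, started at 5 of the 6 sites (83.3%), and in each of the 5 a G came next (CAGG, which contains CAG). Among the other isolated sites on annotated exons, CAG was found at 437 of 2266 (19.3%) and CAGG at 104 (4.59%). Most of those passed in the HF-labelled libraries alone, and among the 241 that passed in another condition CAG was found at 69 (28.6%) and CAGG at 52 (21.6%), against 5 of 5 members that passed outside HF. Among all other sites on annotated exons, clustered ones included, CAG was found at 533 of 3905 (13.6%). CAGG is common in the collagens themselves. It takes up 3.27% of the coding cytosines of Col1a2, 8.93% of those of Col4a6, 7.67% of those of Col16a1 and 0.829% of those of Crtap. A match of letters is a description and says nothing of which enzyme acted there.

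Reading frame differed among the sites. The C was the first base of a CAG codon in Crtap and at Col16a1 chr4:130073114. It was the second base of the codon at the Col1a2 exon 13 site (GCA), Col16a1 chr4:130086244 (CCA) and Col4a6 (TCA), and the third base of GGC at Col1a2 chr6:4540536. At each site but Col1a2 chr6:4540536 the next codon began with GG, which reads in part the same letters as CAGG. Codons followed by a GG codon made up 27.8% of Col1a2, 27.7% of Col4a6 and 24.6% of Col16a1, the glycine repeat of the helix, but 4.01% of Crtap.

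Position along the mRNA also differed. The first Col1a2 site was the second last base of exon 13 of 52 (chr6:4518474-4518518), at 15.9% of the coding sequence. Crtap chr9:114390233 lay in exon 1 of 7 (chr9:114390132-114390675), at 30.6% of the coding sequence. Col4a6 chrX:141200186 lay in exon 22 of 45 (chrX:141200086-141200265), at 32.9%. The Col16a1 sites lay in exon 41 of 70 (chr4:130073069-130073116), 2 bases before its end and at 56.9%, and in exon 54 (chr4:130086219-130086254), at 72.1%. Col1a2 chr6:4540536 lay in the last exon (chr6:4540516-4541544), 20 bases from its start, at 97% of the coding sequence.

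**Figure D1:**
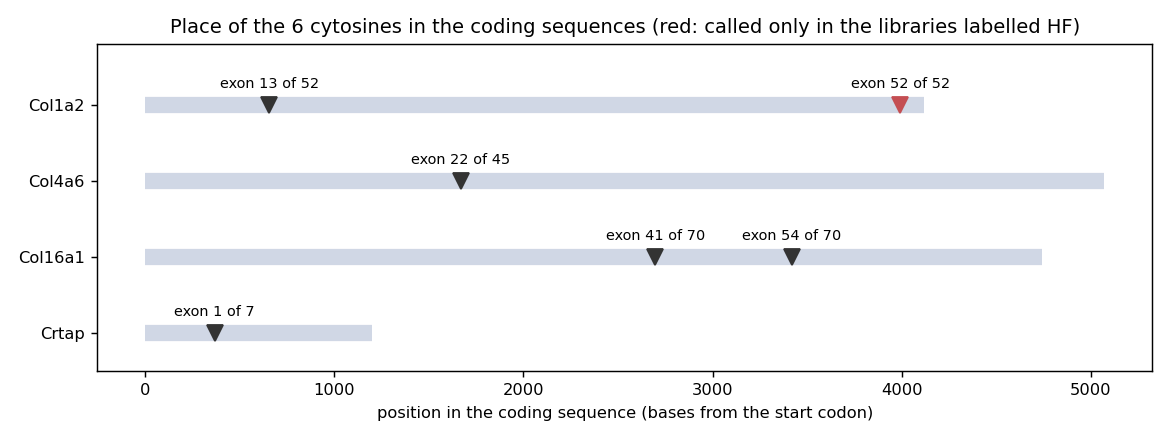
Place of the 6 sites along the coding sequences of Col1a2, Col4a6, Col16a1 and Crtap, in bases from the start codon, with the exon of each site above its marker and grey bars as long as the coding sequence. The sites spread from 15.9% to 97% of the coding sequence, and the site in red, Col1a2 chr6:4540536, passed in the HF-labelled libraries alone.

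Several libraries stood apart from the rest before any of these genes was examined, and both HF-labelled libraries were among them. Of the 3167 cytosines that passed in both HF libraries, 2590 (81.8%) passed in no other condition. At many positions of the study's own filtered list, coverage in the HF files fell below the listed coverage or the position was missing, which happened in no other library. Coverage equalled the listed one at 1 of 93 and 0 of 88 positions in HF, against 57 to 128 positions in each other library. That list had passed the study's later filters, which remove reads or sites and add none. Among neural stem cell markers, 9 of 10 were listed in both replicates of every condition. No cytosine was listed under the name Sox2 in any library, and the reason was not examined. In gene coverage of HF against MF, 1 of the 8 measured was higher and 5 were lower (median log2 difference −0.47), among them Fabp7 (−2.34) and Slc1a3 (−1.22). Scaled to total coverage in place of the median gene, 3 were higher and 4 lower (median −0.26). The 10 fibroblast, meningeal and pericyte markers, each taken as the median coverage of its listed cytosines over the median of all cytosines listed in the library, summed to 13.1 to 13.9 in HF against 3.41 to 4.48 in LF and MF and 2.39 to 5.11 in polysome mRNA, and the 3 that could be tested in HF against MF were all higher (median log2 difference 1.52, with Acta2 at 4.21). Of this list, Col1a1, Col3a1 and Pdgfrb were listed in all 12 libraries, Dcn and Lum in 1 library each, an HF one, and Rgs5 in none. By the same sum, the neural stem cell markers stood at 84.1 to 100 in HF, 89.9 to 99.8 in MF and 107 to 109 in LF. In polysome mRNA that sum ran from 69.2 to 131. Whether the HF-labelled files hold the libraries that the study analysed as HF is not settled by the sources used here, and every HF value below carries that limit. Polysome pHF replicate 2 had the highest median coverage (920, against 335 to 605 elsewhere) and 38353 cytosines with a level above 90% (1102 to 3465 elsewhere). Values without pHF replicate 2 are given beside the member results where it decided a call, a direction or the size of a called difference.

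The deepest coverage was at the Col1a2 exon 13 site, where the level was higher in polysome mRNA than in total mRNA at every folate concentration. In total mRNA the LF libraries stood at 3.22% and 2.49%, the MF libraries at 2.91% and 3.13%, and the HF libraries at 4.16% and 4.59%, with 5015 to 12024 reads a library. In polysome mRNA the pLF libraries stood at 8.04% and 7.44%, the pMF libraries at 9.05% and 8.12%, and the pHF libraries at 10.1% and 10.3%, with 3105 to 6208 reads. All 6 polysome libraries lay above all 6 total libraries, with the highest total library at 4.59% and the lowest polysome library at 7.44%. The mean was 8.85% ± 1.19 (SD, n = 6) in polysome mRNA and 3.42% ± 0.795 (SD, n = 6) in total mRNA, or 2.94% ± 0.324 (SD, n = 4) without the HF-labelled libraries. Groups failed to overlap in this direction at 67 of 352 sites with coverage 20 in all 12 libraries (19%), and at 50 of the 206 isolated ones (24.3%).

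The site passed the rule in pHF alone, so pHF is described without a test. LF, MF, pLF and pMF did not make it pass, but its pMF values, like those of pHF, were known at the choice. The site was thus chosen through polysome mRNA, the fraction where it was high. The direction of the tests of pLF and pMF below is therefore not independent of that choice. In pLF the pooled level was 7.79% against 2.84% in LF (two-sided Fisher's exact test, adjusted p = 1.12e-64). Fisher's test on pooled reads leaves out the spread between replicates, so 2 tests that include it are given beside each call. For pLF against LF the adjusted p was 0.00186 by a beta-binomial test and 0.0375 by limma on log odds. In pMF the pooled level was 8.59% against 3.04% in MF (Fisher's exact test, adjusted p = 1.25e-54), with 9.52e-06 by the beta-binomial test and 0.0310 by limma. Over the alternative settings the adjusted p ran up to 0.0375 for pLF against LF and up to 0.0310 for pMF against MF. Of the sites tested, 46.7% were called in pLF against LF and 50.4% in pMF against MF, with 40.7% and 37.4% higher in the polysome libraries.

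Within total mRNA, LF and MF were not told apart at the Col1a2 exon 13 site (2.84% against 3.04%, Fisher's exact test, adjusted p = 0.609). Fisher's exact test called the HF-labelled libraries higher than MF (4.35% against 3.04%, adjusted p = 2.35e-09), but neither the beta-binomial test (0.255) nor limma (0.165) did. Within polysome mRNA, pLF and pMF were not told apart (7.79% against 8.59%, Fisher's exact test, adjusted p = 0.342). In order of the mean the conditions ran LF, MF, HF, pLF, pMF and pHF, at 2.86% ± 0.515, 3.02% ± 0.152, 4.37% ± 0.306, 7.74% ± 0.427, 8.58% ± 0.661 and 10.2% ± 0.167 (SD, n = 2 each). The order is a description that includes pHF, which chose the site. LF and MF overlapped, and of the neighbours in this order LF and MF, and pLF and pMF, were not told apart by the tests above.

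Listed cytosines upstream of the exon 13 site were nearly fully converted. Over 11 positions within 40 bases on the genome, all upstream, the median level was 0.0714% and the highest 0.302%. The site lies at the end of its exon, and the cytosines that follow it in the next exon were not examined. Coverage at the site was 95% to 99.6% of that at the nearest listed cytosine upstream in every library. A single cytosine downstream of converted neighbours was therefore read as C in 2.49% to 10.3% of reads. Sampling error at this depth was small, with Wilson 95% intervals of 2.15% to 2.89% in the lowest library and 9.61% to 11.1% in the highest. The reads carry no molecular identifiers, so these intervals cover counting error only.

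**Figure D2:**
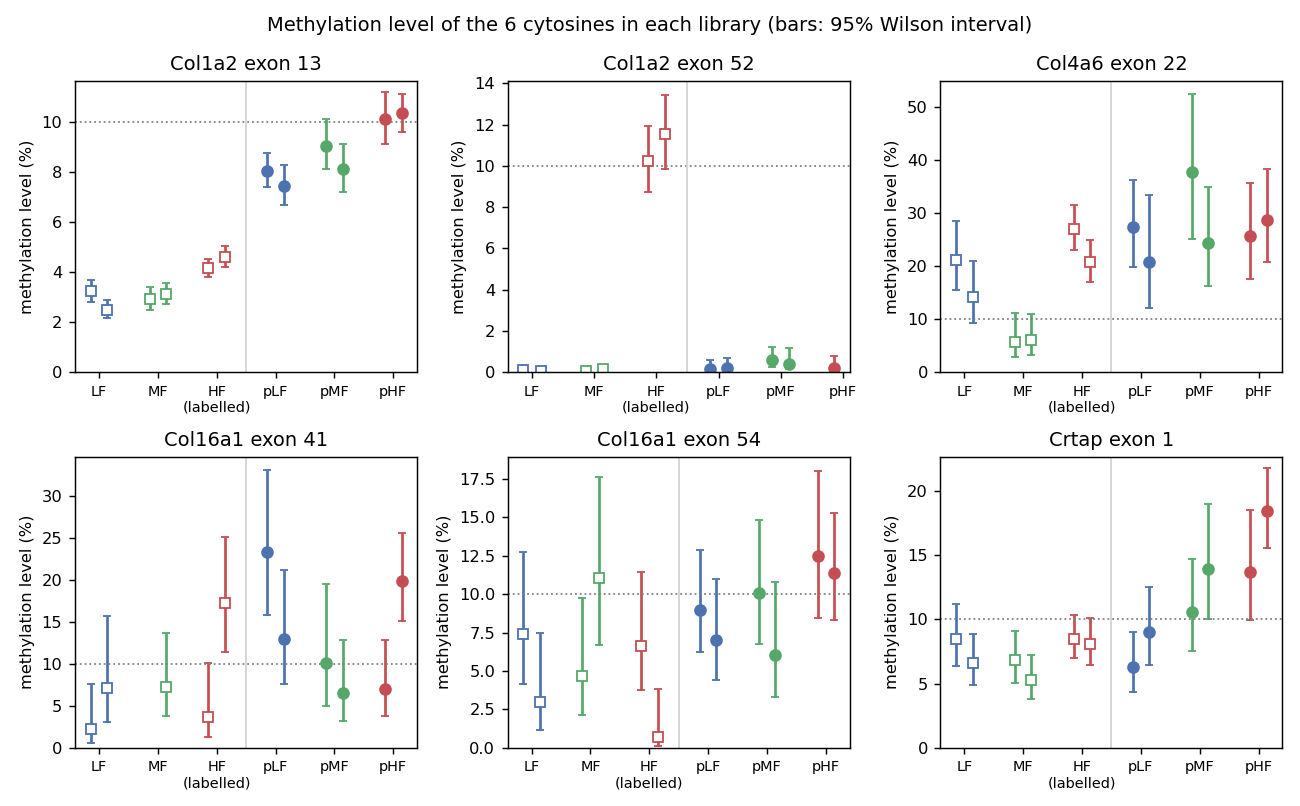
m5C level (%) of the 6 sites in each library, with total mRNA as open squares, polysome mRNA as filled circles, and Wilson 95% intervals as bars, and a dotted line at the 10% needed to pass. At the Col1a2 exon 13 site all polysome libraries sit above all total libraries (7.44% to 10.3% against 2.49% to 4.59%), and at Col1a2 chr6:4540536 only the HF-labelled libraries rise above 1%.

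The Crtap site was the second with higher levels in polysome mRNA, though not at low folate. In total mRNA LF gave 8.48% and 6.59%, MF gave 6.81% and 5.24%, and HF gave 8.50% and 8.10%, on 507 to 1047 reads. In polysome mRNA pLF gave 6.31% and 9.04%, pMF gave 10.6% and 13.9%, and pHF gave 13.7% and 18.5%, on 230 to 597 reads. Of the polysome libraries, 5 of 6 lay above every total library, and pLF replicate 1 was the exception. The means were 12% ± 4.28 in polysome mRNA and 7.29% ± 1.30 in total mRNA (SD, n = 6 each).

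Because the Crtap site passed in both pMF and pHF, each of these could be tested against its total mRNA. The site passed in no total mRNA condition, so the choice favoured a higher polysome level. The pooled level was 12.1% in pMF against 5.98% in MF (Fisher's exact test, adjusted p = 1.26e-04), with 0.00876 by the beta-binomial test and 0.0972 by limma. It was 17.1% in pHF against 8.32% in HF (Fisher's exact test, adjusted p = 2.84e-10), with 0.0476 by the beta-binomial test and 0.146 by limma. Without pHF replicate 2 the difference was 5.39 percentage points in place of 8.74 (Fisher's exact test, adjusted p = 0.0180). In pLF it was 7.52% against 7.46% in LF (Fisher's exact test, adjusted p = 1). Of all sites tested in pHF against HF, 52% were called and 48.9% were called higher in pHF. Whether the polysome effect on the level differed between folate concentrations was not tested.

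Between folate concentrations fewer differences at the Crtap site passed a test. LF and MF were at 7.46% and 5.98% (Fisher's exact test, adjusted p = 0.366). The HF-labelled libraries were higher than MF by Fisher's exact test (8.32% against 5.98%, adjusted p = 0.0190) but not by the beta-binomial test (0.220) or limma (0.231), nor by Fisher's exact test without HF replicate 1 (0.0829). In polysome mRNA pLF lay below pMF, 7.52% against 12.1% (Fisher's exact test, adjusted p = 0.0797, and 0.0287 without pLF replicate 2, the lowest over the alternatives, whose highest was 0.726). The pHF and pMF values of Crtap overlapped, and since the site had passed in those conditions only, the pair was not tested. Around the Crtap site 33 listed positions within 40 bases had a median level of 0.172% and a highest level of 3.95%.

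Col4a6 had the highest mean level of the 4 mRNAs in every condition but MF, where it lay below Crtap and both Col16a1 sites. The LF libraries had 21.2% and 14.1%, the MF libraries 5.65% and 5.96%, and the HF libraries 27.0% and 20.7%. Among polysome libraries pLF had 27.3% and 20.8%, pMF 37.8% and 24.4%, and pHF 25.6% and 28.7%. Both MF libraries lay below all the other 10. The polysome values overlapped with LF and HF at the low end, with coverage of 46 to 110 reads a polysome library against 124 to 418 a total library. The widest Wilson 95% interval, in pMF replicate 1, ran from 25.1% to 52.4%.

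The Col4a6 site passed in every condition but MF, so each comparison with MF or pMF could be tested. In pMF the pooled level was 29.3% against 5.82% in MF (Fisher's exact test, adjusted p = 1.04e-08), with 1.81e-07 by the beta-binomial test and 0.0133 by limma. In LF it was 17.8% against 5.82% in MF (Fisher's exact test, adjusted p = 0.00321), with 0.0464 by the beta-binomial test and 0.554 by limma. The call in LF against MF ended without LF replicate 1 (difference 8.26 percentage points, adjusted p = 0.158), and its adjusted p ran from 0.000850 to 0.554 over the alternatives. It was one of few, as 2.05% of the sites tested were called in LF against MF by Fisher's exact test, 0.379% by the beta-binomial test and 0% by limma (83 of 1319 sites with an unadjusted p under 0.05). In the HF-labelled libraries the level was 24.0% against 5.82% in MF (Fisher's exact test, adjusted p = 1.82e-12), with 8.80e-09 by the beta-binomial test and 0.00316 by limma, where 81% of all sites tested were called.

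No difference at Col4a6 passed the test in pLF against LF (25.2% against 17.8%, Fisher's exact test, adjusted p = 0.120) or in pHF against HF (27.3% against 24.0%, adjusted p = 0.527). Within polysome mRNA neither pLF (25.2%) nor pHF (27.3%) was told apart from pMF (29.3%, Fisher's exact test, adjusted p = 1 for each). Over the 7 listed positions within 40 bases of the site, the median level was 0.775% and the highest 3.73%. At this coverage 1 unconverted read alone gives such a median, as 1 of 129 reads (0.775%) in pLF replicate 1. In the HF-labelled libraries coverage at the site was 173% and 204% of that at the nearest listed cytosine downstream, with 418 and 392 reads at the site against 241 and 192 reads 7 bases on. That step could not be measured in the other libraries, where no cytosine within 15 bases downstream was listed.

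Col16a1 carried 2 sites whose replicates agreed less well. At chr4:130073114, which passed in pLF, the values were 2.17% and 7.14% in LF, 3.61% and 17.2% in HF, and 7.27% in MF replicate 2, with no listing in MF replicate 1. Among polysome libraries pLF had 23.3% and 12.9%, pMF 10.1% and 6.48%, and pHF 7.03% and 19.8%, on 69 to 222 reads. Total and polysome libraries overlapped. In pHF the pooled level was 15.1%, against 11.6% in HF (Fisher's exact test, adjusted p = 0.464) and 7.91% in pMF (adjusted p = 0.172), differences that turned to −4.53 and −0.878 percentage points without pHF replicate 2. The listed nearby cytosines, all upstream of this site near its exon end, had a median level of 1.54% over 14 positions. At this coverage 1 unconverted read of 90 is already 1.11% (MF replicate 1), so the median is not compared with deeper sites. The highest level was 12.6%, at a cytosine 8 bases upstream in pLF replicate 2, where the site itself had 12.9%.

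At Col16a1 chr4:130086244, which passed in pHF, total mRNA ranged from 0.690% in HF replicate 2 to 11% in MF replicate 2. Polysome mRNA ranged from 6.06% in pMF replicate 2 to 12.5% in pHF replicate 1. The ranges overlapped, with means of 9.34% ± 2.48 in polysome mRNA and 5.56% ± 3.62 in total mRNA (SD, n = 6 each). Pooled levels were 8.10% in pLF against 5.32% in LF (Fisher's exact test, adjusted p = 0.245) and 8.36% in pMF against 7.81% in MF (adjusted p = 0.953). HF against MF did not pass the test either (3.86% against 7.81%, Fisher's exact test, adjusted p = 0.0561). That difference lay below 0 in every alternative, from −7.17 to −0.793 percentage points, and some alternatives called it. Coverage was 127 to 317 reads a library, and the HF replicates stood apart at 6.63% and 0.690%.

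Col1a2 chr6:4540536, near the end of the coding sequence, passed in the HF-labelled libraries alone. Its level was 10.2% and 11.5% there, on 1400 and 1215 reads. In the other libraries that listed it the level was 0.0414% to 0.140% in LF and MF and 0.165% to 0.562% in polysome mRNA, on 760 to 2935 reads, and pHF replicate 2 did not list it. All of those values lay under 1%, within the range of the 11 listed positions within 40 bases, whose median was 0.173% and highest 0.924%. Because the HF values chose the site, HF against the rest is a description. Of the 6 sites, it was also the one that is not among the study's filtered positions. Coverage at the site was 119% and 120% of that at the nearest cytosine downstream in the HF-labelled libraries and 98.3% to 102% in the others.

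The levels of 0.493% in pMF and 0.0950% in MF at this site differed by Fisher's exact test (adjusted p = 0.00685) and by limma (0.0392) but not by the beta-binomial test (0.237). They rest on 9 and 5 methylated reads, and the difference also missed the threshold without pMF replicate 1 (0.145) or without MF replicate 1 (0.0972). Listed cytosines up to 40 bases downstream stood at similar levels in the same libraries. These neighbours ran from 0.460% to 0.924% in pMF replicate 1 and from 0.385% to 0.644% in pMF replicate 2. In MF they ran from 0.0343% to 0.244%, so the difference is not particular to this cytosine. In pLF against LF, 0.175% and 0.0731% at the site did not differ past the threshold (Fisher's exact test, adjusted p = 0.359). A step of coverage at a site was seen in the HF-labelled libraries at Crtap as well. Coverage at the Crtap site was 180% and 185% of that at the nearest listed cytosine downstream in HF, with 1047 and 840 reads against 582 and 453 reads 5 bases on, and 86.1% to 98.4% in the others. Against the nearest listed cytosine upstream, the Crtap site had 94.3% of the coverage in HF replicate 1 (none was listed near it in HF replicate 2) and 44.7% to 65.7% in the others. Upstream of Col1a2 chr6:4540536 the share was 35.5% and 37.6% in HF, 33.1% to 38.8% in polysome mRNA and 81.6% to 84% in LF and MF, so coverage stepped in libraries outside HF as well. The part of these steps in the levels was not tested.

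**Figure D3:**
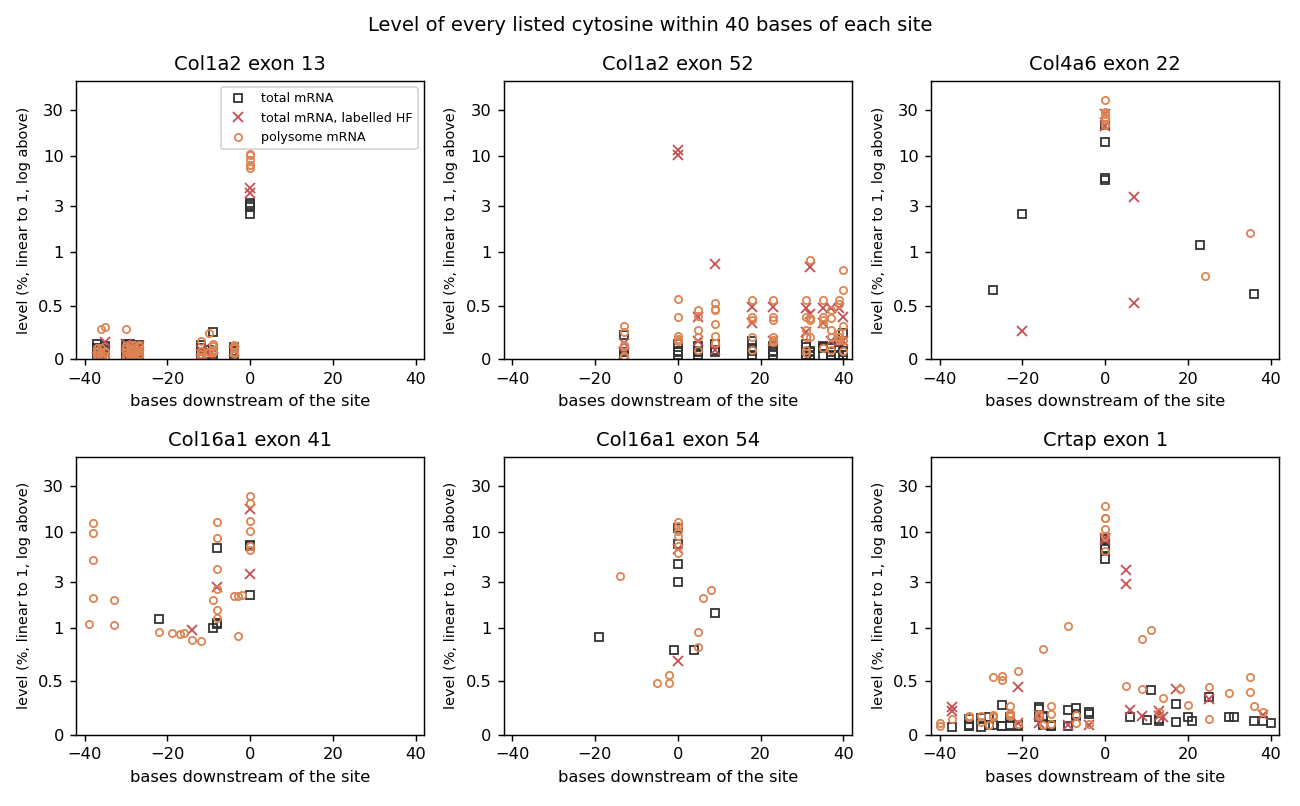
m5C level (%) of every listed cytosine within 40 bases of each site, by distance downstream of the site in bases, on an axis that is linear up to 1% and logarithmic above, with squares for total mRNA, circles for polysome mRNA and crosses for the HF-labelled libraries. Around the Col1a2 exon 13 site no neighbour exceeds 0.302%, whereas around Col16a1 chr4:130073114 neighbours reach 12.6%.

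Counted over all 4 mRNAs, Fisher's exact test called 1 of 5 testable sites in pLF against LF, 4 of 5 in pMF against MF and 1 of 3 in pHF against HF, every one higher in polysome mRNA. Between folate concentrations it called 1 of 5 in LF against MF, 3 of 4 in HF against MF, 0 of 5 in pLF against pMF and 0 of 2 in pHF against pMF. Set beside the share called among all sites tested (46.7%, 50.4%, 52%, 2.05%, 81%, 9.16% and 4.57% in the same order), these counts rest on at most 5 sites each. Among isolated sites alone, which all members are, the shares called were 46.9%, 51.6%, 53.7%, 2.28%, 41.4%, 2.41% and 10.5%. Shares of all sites tested that were called higher in polysome mRNA were 40.7% in pLF against LF, 37.4% in pMF against MF and 48.9% in pHF against HF. Shares called higher in the first group between folate concentrations were 1.36% in LF against MF, 61.5% in HF against MF, 8.07% in pLF against pMF and 3.49% in pHF against pMF. By the beta-binomial test the shares of sites called were 33%, 37%, 39.3%, 0.379%, 69.2%, 1.49% and 0% in that order of comparisons, and by limma 22.2%, 22.1%, 28.2%, 0%, 69%, 0% and 0%. In pLF against pMF and pHF against pMF the beta-binomial test and limma also called none of these sites, and by Fisher's exact test 1 site in each had an unadjusted p under 0.05 (Crtap, p = 0.00802, and Col16a1 chr4:130073114, p = 0.0187).

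The 10% threshold split conditions with close values. Just inside it were the Col1a2 exon 13 site in pHF (10.1% and 10.3%), Col1a2 chr6:4540536 in HF (10.2% and 11.5%) and Crtap in pMF (10.6% and 13.9%). Just outside were the Col1a2 exon 13 site in pMF (8.12% and 9.05%), the Crtap site in HF (8.10% and 8.50%) and Col16a1 chr4:130073114 in pHF (7.03% and 19.8%). A further Crtap cytosine at chr9:114375518 reached 17.4% and 17.9% in HF, but with as few as 4 methylated reads. Counting it, 12 cytosines of these mRNAs passed in 1 library only, 4 of them on Col16a1, 7 on Col4a6 and 1 on Crtap, and none on Col1a2. With the sites that passed left out, which were chosen for high levels, the CAG cytosines had a median level of 0.107% at 98 positions of Col1a2, 0.837% at 136 of Col4a6, 0.937% at 107 of Col16a1 and 0.165% at 37 of Crtap. Cytosines of these mRNAs outside CAG had medians of 0.0903%, 0.787%, 0.791% and 0.148%. A listed level cannot fall below 1 read over its coverage, so these medians depend on coverage and are not compared between genes.

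The abundance of the 4 mRNAs was followed by coverage, as the mean coverage per cytosine over the uncalled cytosines that all 4 libraries of a comparison listed, relative to the median gene of the library. Only cytosines with at least 1 unconverted read are listed, so well covered mRNAs give more of them. Coverage in bulk RNA cannot tell fewer cells that make an mRNA from less of it per cell. Col1a2 was measured on 215 cytosines listed in all 12 libraries, where the LF libraries had 1.57 and 1.53 times the median gene, the MF libraries 1.42 and 1.53, and the HF libraries 2.35 and 2.51. Among polysome libraries pLF had 1.52 and 0.757, pMF 1.04 and 0.983, and pHF 0.902 and 1.16. The HF-labelled libraries were the highest, and every polysome library but pLF replicate 1 lay below every total library.

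Relative to the median gene, Col1a2 coverage was lower in polysome than in total mRNA at medium and high folate. Most genes were called in one direction or the other in these comparisons, 53.6% in pLF against LF (25.5% higher), 76.1% in pMF against MF and 75.7% in pHF against HF (39.7% higher), as were 82.9% in HF against MF. Over the 509 cytosines of pMF against MF it was at 2.63 and 2.53 times the median gene in pMF and 3.42 and 3.74 in MF. It was lower in pMF by limma (log2 difference −0.47 ± 0.08 SE, adjusted p = 0.00211), with 39.2% of the 4197 genes tested lower in pMF and 36.9% higher. Scaled to total coverage in place of the median gene, a change that raises every gene's difference by 0.476 on the log2 scale, the difference was 0.00315 (adjusted p = 0.974), so the fall is relative to the median gene. The call also ended on cytosines listed in all 12 libraries (−0.55, adjusted p = 0.0619) and on unconverted reads (−0.33, adjusted p = 0.202). Over the 591 cytosines of pHF against HF it stood at 2.02 and 2.84 in pHF and 4.87 and 5.09 in HF (log2 difference −1.05 ± 0.17, limma adjusted p = 0.00128, 36% of genes lower). This difference was −0.65 (adjusted p = 0.0132) with total scaling and −1.30 without pHF replicate 2.

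At low folate the pLF libraries did not give one answer. Over 612 cytosines Col1a2 stood at 4.23 and 2.08 in pLF against 4.16 and 4.06 in LF (log2 difference −0.47 ± 0.32, limma adjusted p = 0.261, with 28.2% of genes tested called lower). Without pLF replicate 1 the difference was −0.98, and without pLF replicate 2 it was 0.04. The polysome to total difference of Col1a2 was larger at high than at medium folate (difference of differences −0.65 ± 0.19, limma adjusted p = 0.0147, from 0.000540 to 0.0572 over the alternatives), where 62.4% of genes tested were called, 33.1% with a higher and 29.3% with a lower difference at high folate. At low against medium folate it was 0.02 ± 0.38 (adjusted p = 0.996), where no gene was called and 63 of 2187 had an unadjusted p under 0.05. The result at high folate rests on the HF-labelled total libraries, in which Col1a2 was high.

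In those libraries Col1a2 coverage was 6.15 and 6.39 times the median gene against 3.99 and 4.39 in MF, over 935 cytosines. The difference was 0.58 ± 0.07 on the log2 scale (limma adjusted p = 0.000135), where 36.8% of genes tested were higher and 46.1% lower. The summed coverage of the fibroblast, meningeal and pericyte markers was higher in the same libraries, as given above, and its part in the Col1a2 result was not tested. In LF against MF no gene of 5507 was called by limma (844 had an unadjusted p under 0.05, and edgeR called 1), and Col1a2 differed by 0.10 ± 0.06 (adjusted p = 0.460). Between polysome libraries Col1a2 differed by 0.10 ± 0.28 in pLF against pMF and by 0.0492 ± 0.17 in pHF against pMF, or −0.18 without pHF replicate 2 (limma adjusted p = 1.00 and 0.916), comparisons in which limma and edgeR called no gene (183 of 4105 and 508 of 3846 genes with an unadjusted p under 0.05).

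Crtap moved the other way from Col1a2 at medium folate. Over 28 cytosines it stood at 1.32 and 1.40 times the median gene in pMF and 0.869 and 0.875 in MF, with no overlap. The log2 difference was 0.64 ± 0.08 (limma adjusted p = 0.000457), and 0.18 (adjusted p = 0.673) when unconverted reads were summed in place of coverage. In pLF against LF it was 0.35 ± 0.27 (adjusted p = 0.317), with pLF replicates at 1.64 and 0.938 against 1.00 and 0.949 in LF. In pHF against HF only 5 cytosines were shared, at 1.34 and 0.997 in pHF against 0.921 and 0.988 in HF (log2 difference 0.28 ± 0.16, limma adjusted p = 0.151). It was called higher without pHF replicate 2 (0.49, adjusted p = 7.93e-05) and with total scaling (0.68, adjusted p = 0.00433), and was 0.0636 without pHF replicate 1. HF stood below MF at 0.881 and 0.908 against 1.01 and 0.990 over 10 cytosines (−0.16 ± 0.05, limma adjusted p = 0.0255), a difference that was 0.04 (adjusted p = 0.635) with total scaling.

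Col16a1 and Col4a6 were measured on few cytosines. Col16a1 stood at 0.152 and 0.149 times the median gene in pHF and 0.295 and 0.248 in HF over 5 cytosines, without overlap (log2 difference −0.84 ± 0.15, limma adjusted p = 0.00219, and −0.23 with adjusted p = 0.778 on unconverted reads). In pMF against MF the difference was 0.32 ± 0.13 over 4 cytosines (adjusted p = 0.0655). HF and MF did not differ past the threshold for Col16a1 (0.03 ± 0.08, adjusted p = 0.748). Col4a6 was higher in HF than in MF, at 0.592 and 0.542 against 0.469 and 0.453 over 8 cytosines (0.30 ± 0.07, limma adjusted p = 0.00628). Its adjusted p over the alternatives ran from 4.85e-05 to 0.200. LF and MF were not told apart for Col4a6 (−0.05 ± 0.09, adjusted p = 0.797) or Col16a1 (−0.04 ± 0.10, adjusted p = 0.857). Fewer than 3 cytosines of Col4a6 were shared in each comparison with a polysome library.

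**Figure D4:**
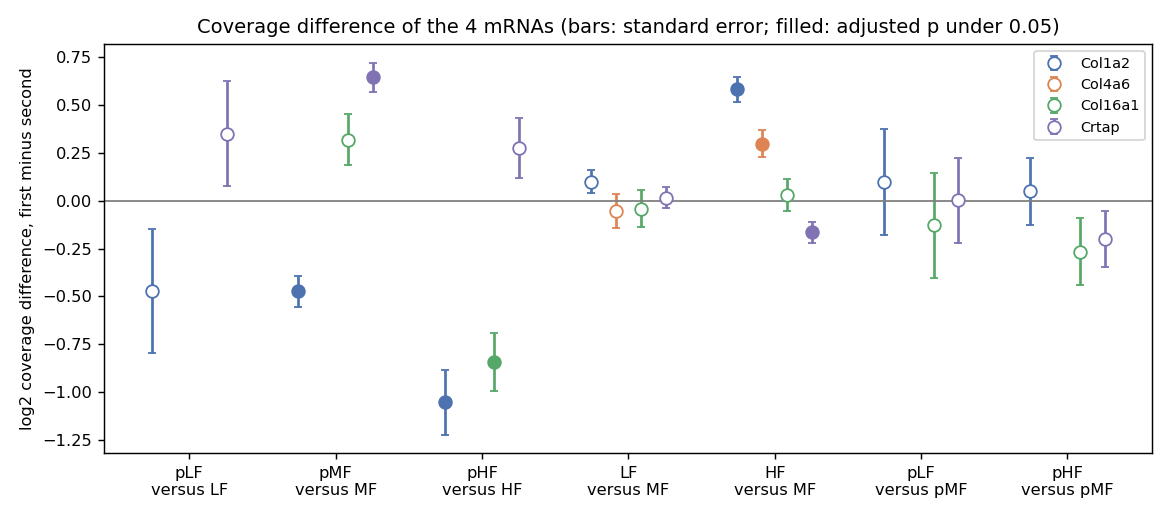
log2 coverage difference, relative to the median gene, of Col1a2, Col4a6, Col16a1 and Crtap in 7 comparisons, as limma estimates with SE bars and filled points where the adjusted p was under 0.05. Col1a2 lies below 0 in pMF against MF (−0.47) and pHF against HF (−1.05), and Crtap lies above 0 in pMF against MF (0.64).

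Among 72 genes of collagen chains and of collagen processing, the groups are described by their counts, and no test compared them with each other. At medium folate, 24 genes besides the members were measured, of which 15 were higher and 7 lower in pMF. By group, with members counted in their own group, fibrillar collagens had 1 higher and 3 lower of 4 (median log2 difference −0.56), and 2 of 2 basement membrane collagens were lower. Genes of prolyl hydroxylation, the group of Crtap, had 6 higher and 0 lower of 7 (median 0.54), and genes of lysyl hydroxylation, glycosylation, folding and secretion had 6 higher and 1 lower of 8 (0.44). Over all genes tested the median difference was −0.0318, with 36.9% higher and 39.2% lower. With total scaling the fibrillar collagens had 1 higher and 1 lower of 4 (median −0.0833), the 2 basement membrane collagens stayed lower, and 7 of 7 prolyl hydroxylation genes were higher, where 58.4% of all genes were higher and 20.3% lower. In the same comparison 2 of 2 measured fibroblast, meningeal and pericyte markers were higher (Acta2 1.51 and Fbln5 1.25), and of 6 neural stem cell markers 1 was higher and 3 lower (1 and 2 with total scaling), among them Nes (−1.58), and their part in the collagen values was not tested. The prolyl hydroxylase P3h1, partner of Crtap, was higher in pMF (1.55 ± 0.09, limma adjusted p = 4.07e-05), as were the lysyl hydroxylase Plod3 (1.65 ± 0.09) and the collagen chaperone Serpinh1 (1.46 ± 0.07). The type IV chain Col4a5 (−1.98 ± 0.11) and the minor fibrillar chain Col11a1 (−1.36 ± 0.19, adjusted p = 0.000982) were lower.

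At low folate 26 genes besides the members were measured, of which 8 were higher and 7 lower in pLF. With total scaling 11 were higher and 2 lower, and no collagen chain was called, where 40.2% of all genes were higher and 14.2% lower. The 2 measured fibroblast, meningeal and pericyte markers were higher here too (Acta2 2.01 and Fbln5 1.18), and of 6 neural stem cell markers 0 were higher and 3 lower (1 and 2 with total scaling), among them Nes (−1.70) and Slc1a3 (−1.23). Their part in the collagen values was not tested. Serpinh1 was again higher (1.34 ± 0.13, limma adjusted p = 0.00111) and Col4a5 (−1.81 ± 0.33, adjusted p = 0.00686) and Col11a1 (−1.31 ± 0.22) lower. The procollagen protease Adamts14 was higher (1.57 ± 0.29), and Mia3, needed to export collagen from the endoplasmic reticulum, was lower (−1.61 ± 0.15). With total scaling Col4a5 (−1.39, adjusted p = 0.0651) and Col11a1 (−0.89, adjusted p = 0.0740) missed the threshold. Prolyl hydroxylation genes had 2 higher and 0 lower of 7, near the 25.5% of all genes called higher. At high folate 26 were measured, with 11 higher and 12 lower in pHF (12 and 7 with total scaling). With total scaling 53.4% of all genes were higher and 21.5% lower. Prolyl hydroxylation genes had 3 higher and 2 lower of 7 at high folate (5 and 0 with total scaling), and 4 of 4 basement membrane collagens were lower (36% of all genes), among them Col4a1 (−1.99 ± 0.13) and Col4a2 (−2.06 ± 0.18), the main type IV chains. In the same comparison 2 of 3 measured fibroblast, meningeal and pericyte markers were lower (Acta2 −1.26 and Foxc1 −1.92) and 1 was higher. Of 5 neural stem cell markers 2 were higher and 1 lower (4 and 1 with total scaling). The part of these markers in the collagen values was not tested. Col5a3, a minor fibrillar chain, was higher (2.21 ± 0.13), as was the collagen-binding protein Sparc (1.76 ± 0.14, limma adjusted p = 6.75e-05).

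**Figure D5:**
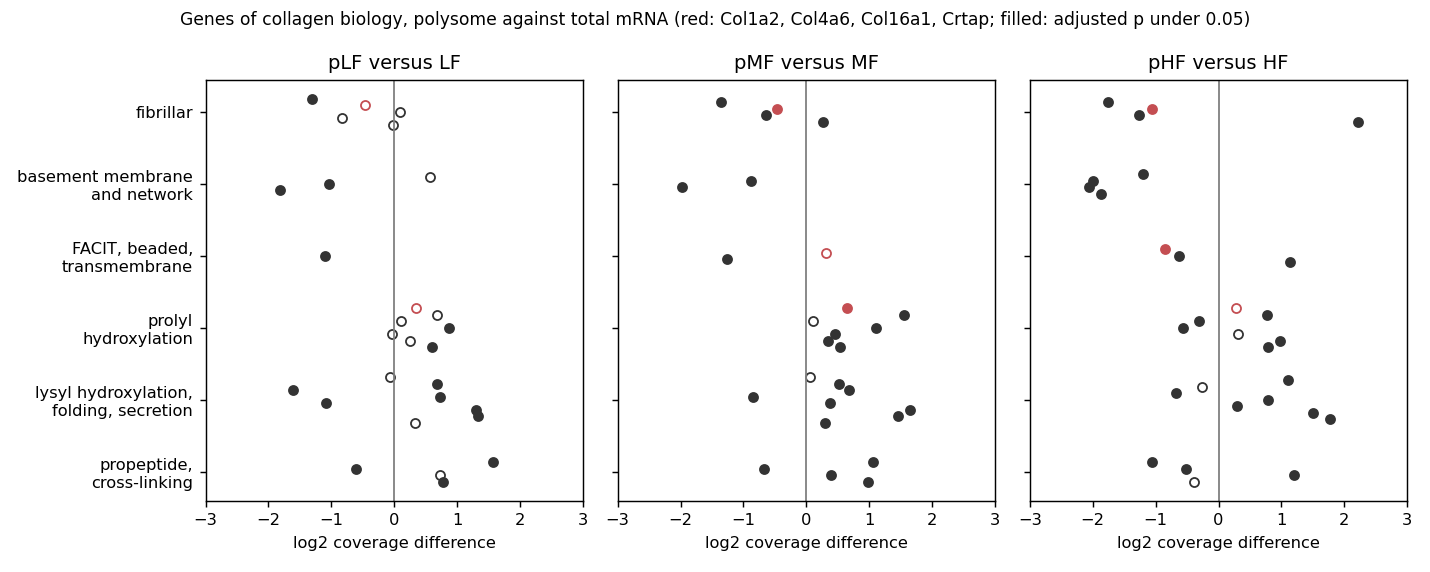
log2 coverage difference of polysome against total mRNA for genes of each collagen group at low, medium and high folate, 1 point a gene, with the members marked. Genes of prolyl hydroxylation lie mostly above 0 in pMF against MF (6 of 7 called higher, with 3 higher and 2 lower in pHF against HF), and basement membrane collagens lie below 0 in pHF against HF (4 of 4 called lower).

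In the HF-labelled libraries 29 genes besides the members were measured against MF, of which 18 were higher and 10 lower. Every one of the 6 measured basement membrane and network collagens, Col4a6 included, was higher, with a median log2 difference of 1.13, where 36.8% of all genes were higher, among them Col8a1 (2.63 ± 0.11 over 3 cytosines) and Col4a2 (1.94 ± 0.07, limma adjusted p = 1.65e-06). In the same comparison 3 of 3 measured fibroblast, meningeal and pericyte markers were higher, and of 8 neural stem cell markers 1 was higher and 5 lower (3 and 4 with total scaling), and their part in the collagen values was not tested. Plod2 (−1.86 ± 0.13), Sparc (−1.36 ± 0.06) and Col5a3 (−1.30 ± 0.06) were lower. The same HF libraries are the controls of pHF against HF, where Col4a2 was lower and Sparc and Col5a3 were higher, so these comparisons share samples. In LF against MF, pLF against pMF and pHF against pMF, none of the 28, 24 and 24 measured genes passed the test in limma. Over all genes these counts were not 0 under every alternative. By leaving out 1 library, 89 of 5507 genes were called in LF against MF without MF replicate 2, 614 of 4105 in pLF against pMF without pLF replicate 2, and 396 or 167 of 3846 in pHF against pMF without pHF replicate 1 or 2. With all libraries kept, 75 (total scaling) and 79 (replicate block) were called in LF against MF, 17 in pLF against pMF (replicate block) and 13 of 1419 in pHF against pMF (cytosines listed in all 12 libraries).

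Over all 12 libraries the genes whose coverage was most like that of Col1a2, by Pearson correlation among 1419 genes, were Col4a1 (r = 0.977 across 12 libraries), Pigs (0.967) and Ltbp3 (0.965). These points share library, depth and the HF-labelled libraries. Among 224 isolated sites listed in all 12 libraries, those whose level was most like that of the Col1a2 exon 13 site were in Fscn1 at chr5:142961220 (r = 0.983), Fbln2 at chr6:91268545 (0.973) and Ccdc107 at chr4:43495356 (0.971). The Fscn1 site ran from 7.37% to 25.6% and the Fbln2 site from 12.5% to 42.3%, against 2.49% to 10.3% at the Col1a2 site. For the Crtap site the nearest was in Uevld at chr7:46924807 (r = 0.914), and the next were a cytosine outside annotated features (0.911) and one in Nomo1 (0.842). For Col4a6 and for Col16a1 chr4:130086244 no site correlated above 0.795, with Ppil1 (0.795), Ranbp9 (0.783) and Ptprn (0.781) nearest to the first and Foxo3 (0.786), Gpr137 (0.711) and Rtel1 (0.706) nearest to the second.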

How the data were processed

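Poly(A) RNA of 12 libraries, 6 of total and 6 of polysome mRNA, was bisulfite converted and sequenced. The deposited files list cytosines with read counts (coverage, reads with C, reads with another base) and the m5C level as a fraction. Per the labels and the study's methods, the authors used fastp for trimming, meRanGh for unique alignment to mm10, and meRanCall and meRanAnnotate to call and annotate cytosines, and R 4.1.1 is named in the submitters' processing notes. No listed cytosine had a coverage below 10 or fewer than 1 methylated read, and the later filters of the study (incomplete conversion, signal to noise, structure) had not been applied, so runs of unconverted cytosines remain. Levels recomputed from the counts matched the deposited fraction within 0.00051. The lists held 797260 to 2071190 cytosines with a summed coverage of 1186213013 to 2857966129. Lower coverage widens the error, as the Wilson 95% intervals show. At positions on the study's filtered list, coverage in the HF files was lower at 41 of 93 and 44 of 88 positions and missing at 6 and 7, and was lower or missing at none in the other 10 libraries.

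Sites were compared with two-sided Fisher's exact tests on reads pooled over replicates, at a coverage of 20 in all 4 libraries, with Benjamini-Hochberg adjustment over all sites tested. Alternatives were a beta-binomial test whose overdispersion all sites share, limma on log odds with a pseudocount of 0.5, other coverage and read minimums, the study's criterion for sites, isolated sites, the replicate number as a block (Cochran-Mantel-Haenszel test) and leaving out each library. With 2 libraries a group, an exact permutation test over samples cannot go below p = 0.333, so none was used. Gene coverage was log2 of the mean coverage per cytosine over at least 3 uncalled cytosines listed in all 4 libraries, centred on the median gene and tested with limma, with interaction terms over 8 libraries. Its alternatives were the number and coverage of cytosines, the median, edgeR on the median, total scaling, unconverted reads, the block and leaving out libraries. A crossed pairing was chosen after seeing the data. Python 3.11.15 (numpy 2.4.6, pandas 2.3.3, scipy 1.17.1) and R 4.3.3 (limma 3.58.1, edgeR 4.0.16) were used. Fisher's exact test, the beta-binomial test, limma and the Cochran-Mantel-Haenszel test were also run on simulated data. The limma interaction terms, the block in limma and edgeR were not. Coordinates and sequences are from GRCm38 with GENCODE annotation, where all 3958 listed cytosines of the members lay on a C.

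The member genes, gene lists and markers were chosen with earlier results of these data known. Named genes are the members in every library and, from the collagen lists, up to 5 genes a comparison with the largest called difference, and 3 genes or sites most like each member. Variant cytosines entered no test. Correlations of replicate deviations between same-numbered libraries of compared groups ran from -0.436 to 0.241 over 1419 genes, so the numbers were not taken to pair samples.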

Additional observations from a re-analysis of the deposited data

Results flagged for a closer look

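The polysome to total difference in Col1a2 coverage was lower at high than at medium folate (difference of differences −0.65 on the log2 scale), and this difference itself passed the test (limma, adjusted p = 0.0147). It ran from −0.86 to −0.45 over the alternatives and did not pass under every one. Of all genes tested, 62.4% were called for the same difference. The value rests on the HF-labelled total libraries, where Col1a2 stood at 2.35 and 2.51 times the median gene against 1.42 and 1.53 in MF. No comparison used cytosines with a variant base, where many reads held neither C nor T. On Col1a2 there were 99 of these in HF replicate 1 and 70 in HF replicate 2, against 2 to 21 in the other libraries. On Col4a6 there were 3 in HF replicate 1 and 5 in HF replicate 2, against 0 to 1 elsewhere, while Col16a1 had none in any library and Crtap at most 2. Over all genes, such cytosines numbered 27353 and 21195 in HF, 18155 in pHF replicate 2 and 4734 to 11495 elsewhere.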

How the results depend on the processing

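The higher level of the Col1a2 exon 13 site in pLF than LF and in pMF than MF, and of Col4a6 in pMF than MF and HF than MF, kept its direction and its side of the threshold under every alternative run. Over all alternatives, 326 of 361 site levels and 241 of 300 coverage differences of the 4 mRNAs did so. The Col1a2 exon 13 site was chosen through pHF with its pMF values known. Its kept direction under other settings is therefore not independent of that choice. Counts of called sites moved with the test. With limma on log odds, member sites called fell to 0 in LF against MF (from 1), 0 in pHF against HF (from 1) and 1 in HF against MF (from 3), and with the beta-binomial test to 1 in HF against MF. At a coverage of at least 50 there was 1 in pLF against pMF. Testing sites called in 1 of the conditions compared gave 1 of 4 in pHF against pMF and 1 of 3 in pLF against pMF. In pMF against MF it gave 2 of 2 (from 4 of 5), and in pHF against HF 3 of 4. Values of the comparison itself chose those sites, so these counts support nothing. Leaving out 1 library gave 0 to 1 in LF against MF, 1 to 2 in pHF against HF, 0 to 1 in pLF against pMF, 0 to 1 in pHF against pMF, 3 to 4 in pMF against MF and 2 to 4 in HF against MF. Over all sites, limma called 153, 160, 120, 0, 0 and 0 in pLF against LF, pMF against MF, pHF against HF, LF against MF, pLF against pMF and pHF against pMF, where Fisher's exact test called 322, 365, 221, 27, 92 and 38, and the beta-binomial test called 5, 15 and 0 in the last 3. The cause of these differences in counts was not tested.

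Counts of member genes called by coverage were 1 in pLF against LF with at least 1 cytosine (from 0) and 1 with the replicate block. In HF against MF they went from 3 of 4 members tested to 1 of 2 with at least 10 cytosines. They were 1 of 1 there with cytosines listed in all 12 libraries and 1 of 4 on unconverted reads. In pHF against HF they went from 2 of 3 to 1 of 1, 1 of 1 and 1 of 3 in that order. In pMF against MF they went from 2 of 3 to 0 of 3 on unconverted reads. Cytosines listed in all 12 libraries gave 0 of 1 there. On those cytosines fewer members could be tested, and the cause of the lost calls was not tested. Total scaling gave 2 in the high folate difference of differences (from 1). Leaving out 1 library gave 0 to 1 in pLF against LF, in pLF against pMF and in each difference of differences. Over all genes, unconverted reads called 251, 450, 486 and 523 in pLF against LF, pMF against MF, pHF against HF and HF against MF, where coverage called 2316, 3196, 3055 and 4382. Cytosines listed in all 12 libraries called 909, 920, 1046 and 978 of 1419 genes. Leaving out an LF library gave 1101 or 1106 calls in pLF against LF, and leaving out a pLF library 3600 or 3634. In LF against MF total scaling called 75 and the replicate block 79. Under total scaling the calls split as 1735 higher of 2348, 2449 of 3302, 2157 of 3026 and 2452 of 4281, where the median scaling gave 1100, 1550, 1604 and 1944 higher.

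The replicate block also called Col1a2 in pLF against LF (−0.47, adjusted p = 0.0230) and no longer called Crtap in HF against MF (0.0631), and the numbers are not known to pair the samples. A crossed block, chosen after seeing the data, called 562 sites in HF against MF, 46 sites in pHF against pMF and 103 genes in pHF against pMF.

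Among the directions that turned, Col1a2 in pMF against MF and Crtap in HF against MF had passed the test. For coverage (log2), the median gave −0.0361 for Crtap in pHF against HF, 0.0512 and 0.0561 for Col16a1 and Col4a6 in LF against MF and 0.18 for Col16a1 in pHF against pMF, and edgeR gave −0.0816, 0.0462, 0.0554 and 0.17. Total scaling gave −0.0340 for Crtap in pLF against pMF, −0.0837 for the low folate difference of differences of Col1a2, 0.00315 for Col1a2 in pMF against MF and 0.0419 for Crtap in HF against MF. At least 10 cytosines gave −0.00490 for Crtap in pLF against pMF. Unconverted reads gave −0.0195 for Crtap and 1.04 for Col16a1 in LF against MF, −0.0413 for Col1a2 in pLF against pMF, and −0.17, 0.0799 and 0.18 for Crtap in pHF against HF, pHF against pMF and HF against MF.

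Leaving out 1 library gave coverage ranges of −0.98 to 0.0412 for Col1a2 and −0.0547 to 0.76 for Crtap in pLF against LF. In LF against MF they were −0.14 to 0.0501 for Col16a1, −0.13 to 0.0227 for Col4a6 and −0.0213 to 0.0544 for Crtap, and in HF against MF −0.0130 to 0.0734 for Col16a1. In pLF against pMF they were −0.42 to 0.16 for Col16a1, −0.42 to 0.61 for Col1a2 and −0.32 to 0.32 for Crtap, in pHF against pMF −0.18 to 0.28 for Col1a2, and in its low folate difference of differences −0.49 to 0.53. Level ranges (percentage points) were −1.15 to 1.58 for Crtap in pLF against LF and −12.6 to 0.794 and −10.5 to 2.91 for Col4a6 in pLF and pHF against pMF. For Col16a1 chr4:130086244 they were −2.67 to 3.70 in pMF against MF, −5.70 to 0.668 in LF against MF and −1.99 to 2.04 in pLF against pMF, and for chr4:130073114 −4.53 to 11.5 in pHF against HF and −0.878 to 11.9 in pHF against pMF. In LF against MF they were −0.542 to 0.185 for the Col1a2 exon 13 site and −0.0672 to 0.0317 for chr6:4540536. Depth widened the Wilson intervals of Col4a6 and Col16a1 most, with as few as 46 reads a library.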

Other observations

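Of the 12 cytosines of these mRNAs that passed in a single library, 5 passed in a library labelled HF. Among them Col16a1 chr4:130067030 reached 22% in HF replicate 2 (9 of 41 reads), and Col16a1 chr4:130090127 reached 21.1% in HF replicate 1 (8 of 38 reads). Both replicates of pLF held one within exon 41 of Col16a1 close to chr4:130073114, with 12.2% at chr4:130073076 in replicate 1 and 12.6% at chr4:130073106 in replicate 2. On Col4a6, chrX:141174695 reached 27.3% in pMF replicate 2 on 22 reads. On Col4a6, 3 others passed in pHF replicate 2 only, at 10.5% to 15.1%. These values rest on 22 to 209 reads.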
